A study of Mus musculus with 4 samples.

Results

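The genes described here are those for the proteins of the cytosolic ribosome. They were picked by symbol alone: gene symbols of the deposited matrix with the stem Rps or Rpl and a number, the 3 stalk genes Rplp0, Rplp1 and Rplp2, and Rpsa, with pseudogene symbols left out. Of the 31053 genes, 83 were members, made up of 31 small subunit genes, 43 large subunit genes, 3 stalk genes and 6 paralogs of core genes (Rpl3l, Rpl10l, Rpl22l1, Rpl39l, Rpl7l1 and Rps27l). They were measured by single-nucleus RNA sequencing in the superior colliculus, a visual midbrain structure, of C57BL/6J mice, for which the labels name no allele or agent, just before birth on embryonic day 19 (E19) and after it on days 4 (P4), 8 (P8) and 21 (P21). A single library of pooled tissue from multiple animals stood for each stage, so there was no replicate, no test between stages was made, and every interval below is a 95% interval that covers counting error only. Where 4 values follow each other, they are in the order E19, P4, P8, P21. One label abbreviated the embryonic day differently from the sample title, and the title was used.

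A ribosome is built from ribosomal RNAs and one copy of nearly every ribosomal protein, in a small subunit that reads the mRNA and a large subunit that joins amino acids. The stalk of the large subunit, made of Rplp0, Rplp1 and Rplp2, recruits the GTPases of translation. Most vertebrate ribosomal protein mRNAs are short and stable, sit in the cytoplasm, and begin with a terminal oligopyrimidine (TOP) tract, a C followed by a run of C and T, through which mTOR and Larp1 control their translation. A nucleus therefore holds only a small part of a cell's ribosomal protein mRNA: what is counted here is RNA in or attached to purified nuclei, given as a percent of the unique molecular identifiers (UMIs, counted RNA molecules) or as counts per 1000000 UMIs (CPM), and levels of RNA in the cytoplasm were not measured.

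The tract that names this class of mRNA was looked up at the RefSeq transcript starts of the members (GRCm38.p6). Of the 83 members, 63 had an entry. A C at the start followed by 4 or more bases that are all C or T, on the transcribed strand, was found at a start of 13 of the 63 (20.6%), against 813 of 27025 genes with an entry (3.01%), and anywhere in the window of 10 bases before to 15 bases after a start in 39 of the 63 (61.9%) against 34.4% of all genes. The first 6 windows below carry the tract, which is in capitals and begins at the annotated start. The last 2, for Rpl11 and Rpl7l1, have no tract at the annotated start and are shown because their last step in neurons, given below, was small. Most of the 63 have no tract there either, among them Rplp0, Rpl41 and Rpsa, which had large differences. Rps21, with no direction over the stages in inhibitory neurons, carries the tract at a start. Windows are 25 bases, 5′ to 3′, and annotated starts can lie some bases from the true ones.
Rpl15, chr14:18270972-18270996, minus strand: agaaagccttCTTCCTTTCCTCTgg
Rpl35, chr2:39005117-39005141, minus strand: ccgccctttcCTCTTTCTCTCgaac
Rps10, chr17:27635230-27635254, minus strand: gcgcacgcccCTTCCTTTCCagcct
Rps18, chr17:33955651-33955675, minus strand: cacttccgctCTCTCTTCCacagga
Rps6, chr4:86857353-86857377, minus strand: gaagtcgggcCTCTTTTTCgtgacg
Rpl28, chr7:4792955-4792979, plus strand: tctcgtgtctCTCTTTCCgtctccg
Rpl11, chr4:136053379-136053403, minus strand: ccataaggccacggggccggaagtc
Rpl7l1, chr17:46782642-46782666, minus strand: gctgcgcaagcgcagtagctgaagc

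Ribosomal protein RNA was a smaller part of nuclear RNA at each later stage. In excitatory neurons the members together were 0.371%, 0.223%, 0.140% and 0.0718% of UMIs in stage order, with an interval of 0.368 to 0.375 for the first and 0.0704 to 0.0732 for the last, so that P21 was 5.17-fold below E19 (5.06 to 5.29). The 4 intervals do not overlap and each stage is below the one before it. In inhibitory neurons they were 0.468%, 0.282%, 0.183% and 0.0792%, a 5.91-fold difference (5.77 to 6.05). In astrocytes the series was 0.655%, 0.471%, 0.308% and 0.110%, a 5.95-fold difference (5.64 to 6.28). The steps were unequal: the P8 to P21 step was the widest in all 3 classes, at 1.95-fold, 2.31-fold and 2.79-fold, but it also spans the longest time.

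Oligodendrocyte lineage nuclei had 0.731%, 0.541%, 0.361% and 0.119%, from 47 and 54 nuclei in the earlier pair of libraries. Vascular leptomeningeal cells had 0.632%, 0.440%, 0.317% and 0.123%, from 36 nuclei in the first. Both classes kept the order of the stages. Classes with fewer nuclei are given for completeness: microglia, with 13 to 33 nuclei a stage, were at 0.877%, 0.641%, 0.477% and 0.269%, and dividing cells, with 10 to 36, at 0.568%, 0.423%, 0.314% and 0.133%. Epithelial cells went from 0.947% in 13 nuclei at E19 to 0.131% in 40 at P21. Endothelial nuclei, 12 to 22 a stage, were the exception to the order of the stages in pooled percent, with 1.07%, 1.17%, 1.07% and 0.376%. Their median nucleus kept the order, at 0.848%, 0.704%, 0.673% and 0.184%. The pooled percent lay far above the median at P4 and P8, so a few nuclei carried much of the pooled value.

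**Figure D1:**
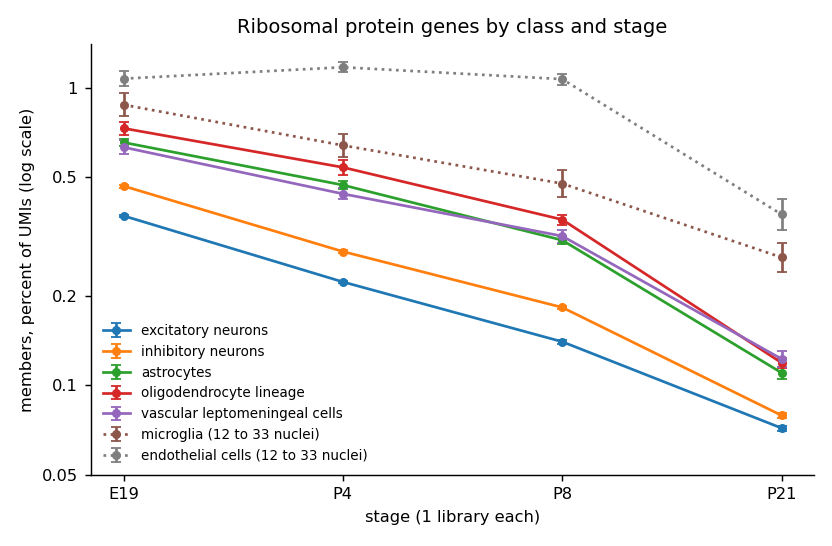
Percent of UMIs from the 83 members (vertical axis, log scale) at each stage, by class; points are pooled values of 1 library and bars are exact 95% binomial intervals for counting error. Excitatory neurons are lowest at every stage, from 0.371% to 0.0718%, and endothelial cells, with few nuclei, are the class that is not lower at P4 than at E19.

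In pooled percent, with depth not matched, non-neuronal nuclei had more ribosomal protein RNA, relative to their own total, than neurons at every stage. Astrocytes were above all neurons by 1.62-fold (1.58 to 1.66), 1.96-fold, 1.93-fold and, in the oldest library, 1.47-fold (1.40 to 1.54). Astrocyte nuclei were shallower, with a median of 5525 UMIs against 16388 in neurons at P21. Among nuclei with 6000 to 12000 UMIs, astrocytes were above both neuron classes at E19, P4 and P8. At P21 they were not, with 0.0939% against 0.107% in excitatory and 0.0971% in inhibitory neurons of that depth. How much of the excess goes with depth was not tested. Microglia, with 13 nuclei at E19 and 33 at P21, were 2.17-fold above neurons at E19 and 3.59-fold at P21 (3.19 to 4.02) in pooled percent. At P21 their pooled 0.269% lay above their median nucleus (0.187%), with a highest nucleus of 1.84%, so a few nuclei carried part of it. The median neuron was at 0.0755%. Inhibitory neurons were above excitatory neurons by 1.26-fold, 1.27-fold, 1.30-fold and, at P21, 1.10-fold (1.07 to 1.13) in pooled percent. They too were shallower, with a median of 14009.5 against 19601 UMIs at P21. At 6000 to 12000 UMIs they were above at E19 (0.419% against 0.382%), P4 and P8, and below at P21. At 2000 to 6000 UMIs they were above at E19 and below at P4 (0.463% against 0.488%) and P8. At P21 the values of astrocytes, the oligodendrocyte lineage and leptomeningeal cells were close, and the intervals of neighbouring classes overlapped (0.105 to 0.115, 0.115 to 0.124 and 0.116 to 0.130).

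Subtypes with more UMIs per nucleus had a lower percent. Among excitatory subtypes with at least 20 nuclei, EN8 was lowest in the first 3 libraries (0.309%, 0.182% and 0.108%), and at P4 its median nucleus had 15498.5 UMIs against 7460 in EN6, the highest (0.314%). Among inhibitory subtypes IN1 was lowest at E19 (0.370%) and IN3 highest (0.686%), with medians of 8604.5 and 4465 UMIs. Across the 11 to 13 subtypes of a class and stage, the Spearman correlation of the percent with median UMIs was between -0.98 and -0.87, a description of points that share a library. The order of the stages was the same within a narrow range of depth: at 6000 to 12000 UMIs per nucleus, excitatory neurons had 0.382%, 0.269%, 0.183% and 0.107%, a log2 ratio of P21 to E19 of -1.83 in place of -2.37 over all nuclei. Inhibitory neurons of that depth had 0.419%, 0.285%, 0.201% and 0.0971%, a ratio of -2.11 in place of -2.56.

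**Figure D2:**
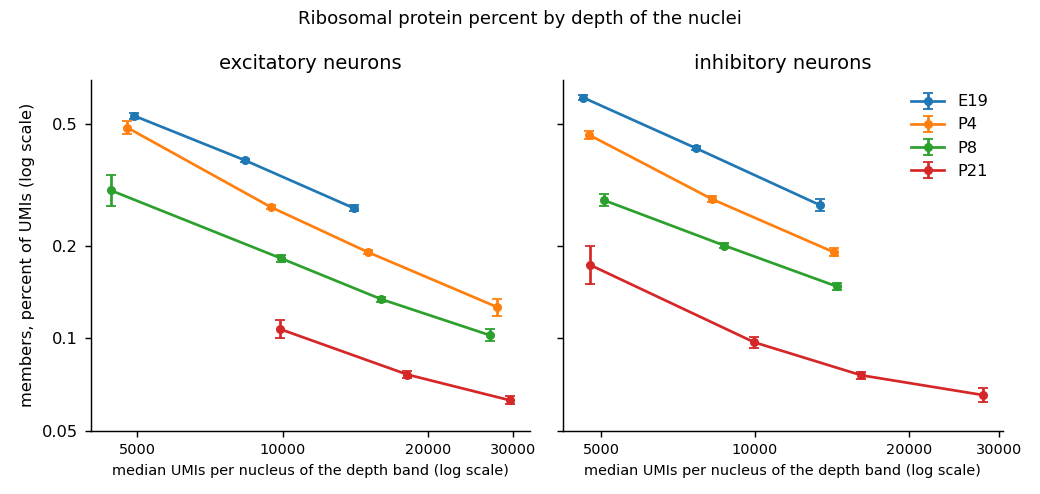
Percent of UMIs from members (vertical axis, log scale) against the median UMIs per nucleus of 4 depth bands (horizontal axis, log scale), for bands with at least 20 nuclei; bars are exact 95% binomial intervals. Within a stage deeper nuclei have a lower percent, and at a given depth the curve of each later stage lies below that of the earlier one.

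Every neuron subtype measured had the same order of stages. The percent was lower in 25 of 25 subtypes over the first step, in 23 of 23 over the second and in 23 of 23 over the last. From E19 to P21 the log2 ratio over the 23 subtypes ran from -3.16 to -2.22 with a median of -2.61. The subtypes of a class are parts of the same libraries and are not replicates of a stage. Among glia, protoplasmic astrocytes went from 0.664% to 0.107% and fibrous astrocytes from 0.622% to 0.130%, and oligodendrocyte precursors from 0.737% at E19 to 0.168% at P21, when myelinating oligodendrocytes were at 0.103%.

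In UMIs per nucleus the difference was smaller, because older neurons had more UMIs in all. Excitatory neurons held a mean of 32.0, 27.5, 21.3 and 15.4 member UMIs per nucleus, and astrocytes 31.0, 21.3, 16.4 and 6.24. Across nuclei of a neuron class and stage the member percent went with the mitochondrial percent (Spearman 0.33 to 0.74) and against total UMIs (-0.80 to -0.43), values within 1 library each. The mitochondrially encoded transcripts, which are made outside the nucleus, did not follow the members in time: in excitatory neurons they summed to 5135, 7416, 2232 and 1719 CPM, so they were higher at P4 when the members were lower. How much of either is cytoplasm carried with the nuclei was not tested.

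Single members mostly followed the sum. In excitatory neurons, 64 of the 83 averaged at least 10 CPM over the stages, and 63 of those 64 were lower at P21 than at E19 by a log2 ratio of 0.5 or more (5 CPM added to both levels), where 23.8% of all 9175 genes tested were; their median was -2.01 against -0.07 for all genes. Of the same 64, 48 were lower by that size over the first step (all genes 5.11%), 38 over the second (5.85%) and 43 over the last (13.0%). Of these members 0 were higher by it at any step, where 3.35%, 2.50% and 8.95% of all genes were, and 0 over the whole span (14.2%). In inhibitory neurons the counts were 51 of 67 (5.55%), 33 of 67 (4.67%) and 58 of 67 (13.6%), and 64 of 67 from E19 to P21 (24.4%; median -2.14 against -0.06). Of the tested members, 62 of 64 were lower by any amount at each of the 3 steps in excitatory neurons, where 21.2% of tested genes were, and 64 of 67 in inhibitory neurons (21.4%). Counted over all 83, 70 were in each class.

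Among small subunit genes, Rpsa, a 40S protein also known as the laminin receptor, had 127, 79.8, 43.3 and 12.2 CPM in excitatory neurons, 10.4-fold lower at the end. In inhibitory neurons it had 166, 108, 60.4 and 19.1. Rps29, a small zinc-binding 40S protein, had 98.6, 39.2, 26.4 and 10.5 CPM in excitatory neurons, and its E19 to P4 step (log2 ratio -1.23) was the largest among the tested members of that class. Rps3, which lines the mRNA entry channel, had the largest P4 to P8 step in both neuron classes, from 42.4 to 20.5 CPM in excitatory and from 55.1 to 27.0 in inhibitory neurons, where Rpl4 came next (56.5 to 28.6). The smallest P4 to P8 steps after Rps13 were in Rps2 in excitatory neurons (10.6 to 9.2 CPM) and Rpl30 in inhibitory neurons (10.3 to 9.1). The 31 small subunit genes went from 1549 to 270.6 CPM in sum, 5.72-fold lower in excitatory neurons, and all 28 that passed the filter there were lower by the fold.

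At the other end of the small subunit, Rps13 had 14.05, 10.3, 9.9 and 8.0 CPM in excitatory and 14.1, 14.9, 13.4 and 10.9 in inhibitory neurons, a log2 ratio of -0.27 from E19 to P21 in the latter. Rps21 had 10.7, 13.5, 8.2 and 9.9 CPM in inhibitory neurons, with no direction over the stages (log2 ratio -0.08). In excitatory neurons it missed the filter with 8.7, 11.1, 7.8 and 8.9 CPM. These levels rest on 100 to 166 UMIs of Rps21 a stage in excitatory neurons.

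Among large subunit genes, Rpl41, which encodes a very short basic peptide, had 206, 122, 79.0 and 26.4 CPM in excitatory neurons and 261, 166, 102 and 28.3 in inhibitory neurons. Rpl39 had 31.8, 12.1, 6.4 and 3.4 CPM in excitatory neurons and the largest E19 to P4 step of inhibitory neurons (47.1 to 18.2). The 43 large subunit genes went from 1915 to 402 CPM in sum, 4.77-fold lower in excitatory neurons, where 32 of 32 that passed were lower by the fold. Rpl9 (14.8, 12.2, 9.6 and 7.2 CPM) and Rpl12 (18.3, 17.5, 13.4 and 10.7) had the smallest log2 ratios over the whole span among core large subunit genes that passed the filter in excitatory neurons.

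Rpl11, whose protein joins the 5S particle and can bind Mdm2, was among the tested members that were not lower at P21 than at P8 in neurons. In excitatory neurons it had 58.6, 31.6, 27.5 and 29.2 CPM, and in inhibitory neurons 71.8, 37.9, 28.4 and 29.1. From P4 to P8 its log2 ratio in excitatory neurons was -0.17, where the median of tested members was -0.55, and Rps13 (-0.03) and Rps2 (-0.14) changed less. From P8 to P21 Rpl7l1 in excitatory neurons (0.09) and Rps21 in inhibitory neurons (0.17) had higher log2 ratios than Rpl11 (0.07 and 0.03). The last 2 levels of Rpl11 lie within counting error of each other in both classes. In astrocytes it kept the order of the stages, with 99.3, 56.4, 36.3 and 14.8 CPM, 6.73-fold lower. At P21 it was the tested member that was lowest in astrocytes relative to neurons (14.8 against 29.1 CPM, log2 ratio -0.79). The annotated gene spans 25164 bases on chromosome 4 (136028265 to 136053428, minus strand, GRCm38), of which 2697 are exonic, where the median member spans 3368 and the median protein-coding gene 17318. Only 4 members reach 10 kb (Rpl3, Rpl11, Rps14 and Rps15a). Whether the plateau lies in exonic or intronic reads was not tested, and whether intronic reads were counted is not stated.

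In sum the stalk genes had the largest difference of the member groups in neurons, and Rplp0 and Rplp1 carried it. In excitatory neurons Rplp0 had 76.1 (71.2 to 81.3), 43.6, 21.6 and 5.0 CPM (3.9 to 6.3), 15.2-fold lower, from 878 UMIs to 73. In inhibitory neurons it had 101, 54.8, 32.8 and 6.7 CPM (15.1-fold), and in astrocytes 168, 73.3, 58.1 and 13.5 (12.4-fold), and its log2 ratio with 5 CPM added was the lowest of all tested members in excitatory neurons and astrocytes. Rplp1 had 120, 59.5, 30.7 and 12.6 CPM in excitatory and 160, 77.0, 46.9 and 13.1 in inhibitory neurons. At P21 Rplp1 was the member with the largest excess in astrocytes over neurons, at 35.1 against 12.8 CPM. Rplp2, the partner of Rplp1 in the stalk, did not pass the filter in neurons, with 10.1, 7.2, 6.2 and 5.5 CPM in excitatory and 11.1, 6.6, 6.3 and 7.1 in inhibitory neurons.

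In sum the paralogs differed least of the member groups in neurons, where only Rpl7l1 and Rpl22l1 of them passed the filter. Single paralogs varied. Rpl7l1, which belongs to ribosome assembly rather than to the finished particle, had 17.3, 14.03, 11.3 and 12.4 CPM in excitatory neurons, the smallest difference of the 64 tested members (log2 ratio -0.36), and 19.1, 18.5, 14.4 and 14.3 in inhibitory neurons. In astrocytes it had 17.3, 34.7, 17.7 and 14.1, and it was the 1 of 68 tested members that was higher by the fold from E19 to P4 (13.0% of genes were). Rpl22l1 had 17.9, 13.3, 7.7 and 7.1 CPM in excitatory neurons beside 39.9, 32.8, 20.6 and 14.3 for its core partner Rpl22, so that both were lower at P21, by 2.53-fold for the paralog. Rps27l, a p53 target, had 7.6, 3.6, 2.3 and 1.9 CPM. The muscle paralog Rpl3l had 0.3, 0.6, 1.4 and 1.2 CPM in excitatory neurons, from 91 UMIs in all nuclei together. Of the testis paralogs, Rpl10l had 0 UMIs in all nuclei and Rpl39l had 3. The 6 together went from 43.0 to 22.5 CPM in excitatory neurons, 1.91-fold, against 8.94-fold for the 3 stalk genes.

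**Figure D3:**
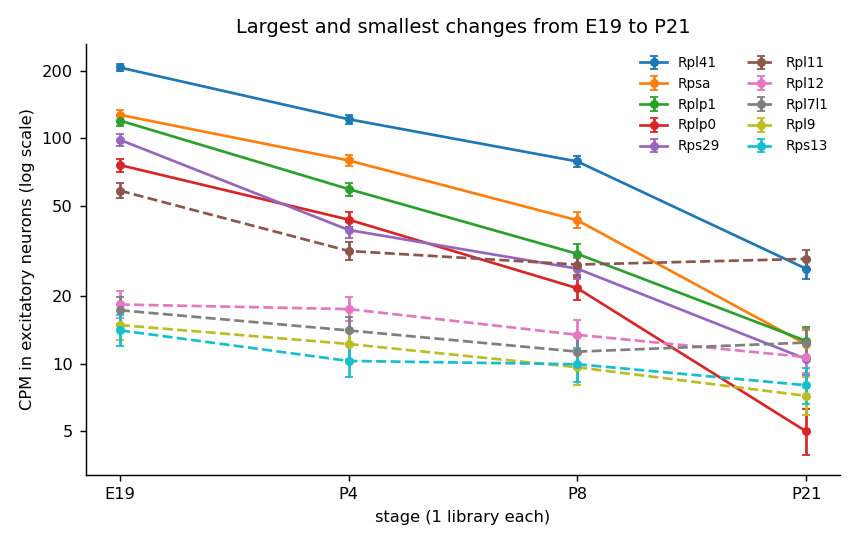
CPM in excitatory neurons (vertical axis, log scale) at each stage for the 5 tested members with the largest (solid lines) and the 5 with the smallest (dashed lines) log2 ratio from E19 to P21; bars are exact 95% Poisson intervals. Rplp0 goes from 76.1 to 5.0 CPM, while Rpl11 stays between 27.5 and 31.6 CPM from P4 on.

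In astrocytes 67 of 68 tested members were lower by the fold from E19 to P21, where 35.9% of 10089 genes were, and the single steps held 29 (10.8%), 36 (17.9%) and 60 (23.2%). By the log2 ratio with 5 CPM added, Rplp0 was followed by Rpl18 (165 to 15.4 CPM) and Rps26 (91.8 to 8.0), and the smallest differences after Rpl7l1 were in Rps21 (17.3 to 10.5) and Rpl9 (12.96 to 7.4). As a plain ratio of CPM the widest was in Rpl15, from 28.1 to 1.2 CPM (22.8-fold), which rests on 26 and 2 UMIs. Astrocytes had 51 of 70 tested members above neurons by the fold at E19 (32.5% of genes) and 20 of 39 at P21 (27.5%). Here a gene was tested if it averaged at least 10 CPM over astrocytes and neurons at that stage. Members could pass through the astrocyte level alone, as Rpl7 and Rpl32 did at P21. These counts therefore favour an excess and do not measure its extent, and depth was not matched in them. Rpl38, a large subunit protein known from patterning defects in mice, led at E19 with 58.3 against 25.04 CPM, followed by Rps14 (129.6 against 61.9) and Rplp0 (168 against 84.7). Rpl9 (12.96 against 14.6), Rpl7l1 (17.3 against 17.9) and Rpl12 (18.4 against 18.9) were lowest relative to neurons. At P21 Rpl7 (21.5 against 7.3) and Rpl32 (20.3 against 7.4) came after Rplp1, and Rpl37a (11.1 against 11.4) and Rpl27a (16.6 against 16.3) were nearest to neurons after Rpl11.

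In the oligodendrocyte lineage 69 of 71 members were lower by the fold from P4 to P21 (42.0% of genes were), and in vascular leptomeningeal cells 65 of 69 (30.0%). Rpl32 went from 145 to 15.7 CPM and Rpl29 from 88.0 to 9.4 in the former, and Rpl29 from 93.4 to 8.7 and Rpl32 from 97.5 to 11.99 in the latter, where Rpl10a went from 93.4 to 11.99. The low ends were Rps7 in the oligodendrocyte lineage (13.2 to 11.5 CPM, on 3 UMIs at P4) and Rpl22l1 in leptomeningeal cells (20.3 to 19.6). The P21 oligodendrocyte class contains 187 myelinating nuclei, a subtype with 0 at P4, so its makeup differs between the stages.

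Some core members had very few UMIs, and related symbols that the rule leaves out had many. Rps27 had 120 UMIs in the 4 libraries together, while Rps27rt, annotated as a protein-coding retrotransposed copy, had 52.9, 35.7, 23.6 and 15.5 CPM in excitatory neurons. Rpl27 had 3.1, 1.7, 1.9 and 2.4 CPM there, against 50.6, 27.9, 16.3 and 7.3 for the processed pseudogene Rpl27-ps3. Rps12 had 5.6, 4.4, 5.0 and 2.6 CPM, against 23.6, 10.4, 7.7 and 3.0 for Rps12-ps3. For Rpl9, one of the members with the smallest differences above, Rpl9-ps6 had 123, 68.0, 41.2 and 17.9 CPM, so the 2 symbols together were 5.51-fold lower at P21 where Rpl9 alone was 2.06-fold lower. Whether the members and these copies share reads was not tested and the counting rule for copies is not stated, so the values of Rpl9, Rpl27, Rps12 and Rps27 are uncertain.

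Rpl13 had 0 UMIs among 101617995. It lies on chromosome 8 (123102350 to 123105244, plus strand) inside the annotated gene Gm20388 on the same strand, which spans 119910841 to 124345722. Gm20388 had 323, 327, 285 and 302 CPM in excitatory neurons, a narrow range beside that of the members, but its span covers other genes too. How reads shared by overlapping genes were counted is not stated, so the count of 0 sets no limit on the level of Rpl13. A further 4 members (Rpl13a, Rpl19, Rpl24 and Rps10) overlap a same-strand gene and 23 overlap a gene on the opposite strand, and 30 hold small nucleolar RNA genes in their bodies. Whether counting used the read strand is not stated.

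The deposited table has a percent of UMIs from ribosomal protein genes for each nucleus, and this column does not hold the members alone. It equalled, within 1e-09, the percent from all 105 symbols that start with Rps or Rpl in 9724 of 9724 nuclei, and equalled the member percent in 95. The other 22 genes are 10 Rps6k genes, which encode the ribosomal S6 kinases and relatives and no ribosomal protein, 9 pseudogene symbols, and Rps27rt, Rpl36al and Rps19bp1. In sum the kinase genes did not have the members' order of stages: in excitatory neurons they were 0.0558%, 0.0596%, 0.0615% and 0.0736% of UMIs. Single kinase genes differed, and Rps6ka6 was lower at each step there, with 27.6, 25.4, 23.8 and 12.5 CPM. Rps6ka3 alone, which encodes the kinase Rsk2, went from 101 CPM at E19 to 189 at P21. Kinase genes were 12.3% of the UMIs behind the deposited column at E19 and 48.9% at P21 in excitatory neurons, where members were 81.5% and 47.7%. Pooled over excitatory neurons the column's genes were 0.456% and 0.150% of UMIs at the ends of the series, a log2 ratio of -1.60 where the members gave -2.37. In inhibitory neurons the pair was -1.82 and -2.56, and in astrocytes -2.02 and -2.57.

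**Figure D4:**
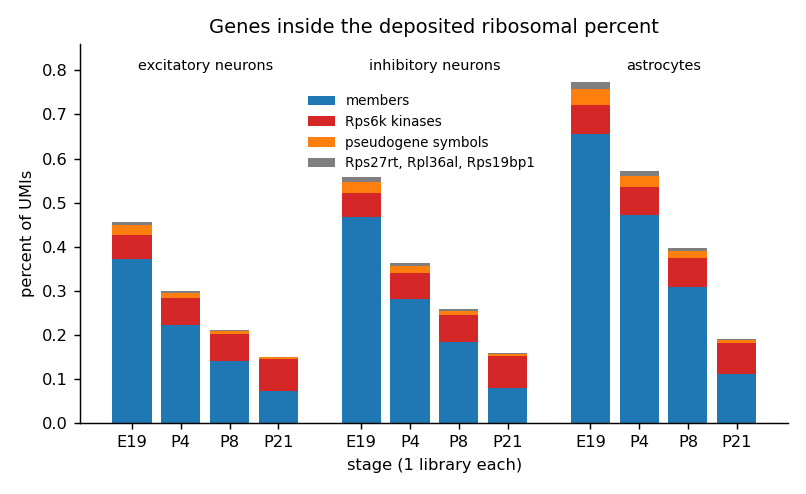
Percent of UMIs (vertical axis, from 0) from the 105 genes behind the deposited ribosomal column, split into members, Rps6k kinase genes, pseudogene symbols and 3 others, at each stage in 3 classes (1 library a stage, pooled values). The kinase part goes from 0.0558% to 0.0736% in excitatory neurons while the member part goes from 0.371% to 0.0718%.

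Other genes of translation were set beside the members. In excitatory neurons the elongation factor list, which besides elongation factors holds Tpt1, went from 916 to 192 CPM in sum, 4.78-fold lower. Of its genes, 7 of 8 were past the fold (23.8% of all genes were, also for the counts that follow). Fau and Rack1, ribosomal components whose symbols fall outside the rule, both were lower (56.6 to 7.3 and 52.7 to 14.4 CPM). Eef1a1, the general form of the factor that brings tRNA to the ribosome, went from 400 to 37.9 CPM, and Eef1a2, its adult neuronal and muscle form, from 55.8 to 39.6. Initiation factors were 1.54-fold lower in sum, with 13 of 26 past the fold, from Eif1 (70.0 to 19.0 CPM) to Eif3j1 (27.4 to 37.9). Genes of ribosome assembly and rRNA synthesis were 1.32-fold lower, with 5 of 16 past the fold, near the share of all genes, from Nop10 (23.9 to 5.3) to Polr1a (28.2 to 38.5). Regulators of TOP mRNAs, among them mTOR pathway genes, summed to 907 and 886 CPM, with 0 of 11 past the fold. The mitochondrial ribosome, whose genes are not members, was 1.20-fold lower.

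Short mRNAs with other roles differed by a like amount. A list of 17 short abundant housekeeping mRNAs, for actin regulators, ferritins, ubiquitins and others, summed to 3476, 1978, 1214 and 654 CPM in excitatory neurons, 5.31-fold lower where the members were 5.17-fold lower, and 16 of 16 tested were past the fold. In inhibitory neurons the list was 6.04-fold lower and in astrocytes 4.48-fold. Tmsb10, which encodes a small actin monomer binder, led it with 348 to 11.6 CPM. Nuclear noncoding RNAs went the other way, 1.58-fold higher in sum at P21, with Malat1 from 8837 to 16571 CPM. The oxidative phosphorylation genes encoded in the nucleus, the other list of short abundant mRNAs, were only 1.59-fold lower, with Atp5e at 46.4 to 7.1 CPM.

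**Figure D5:**
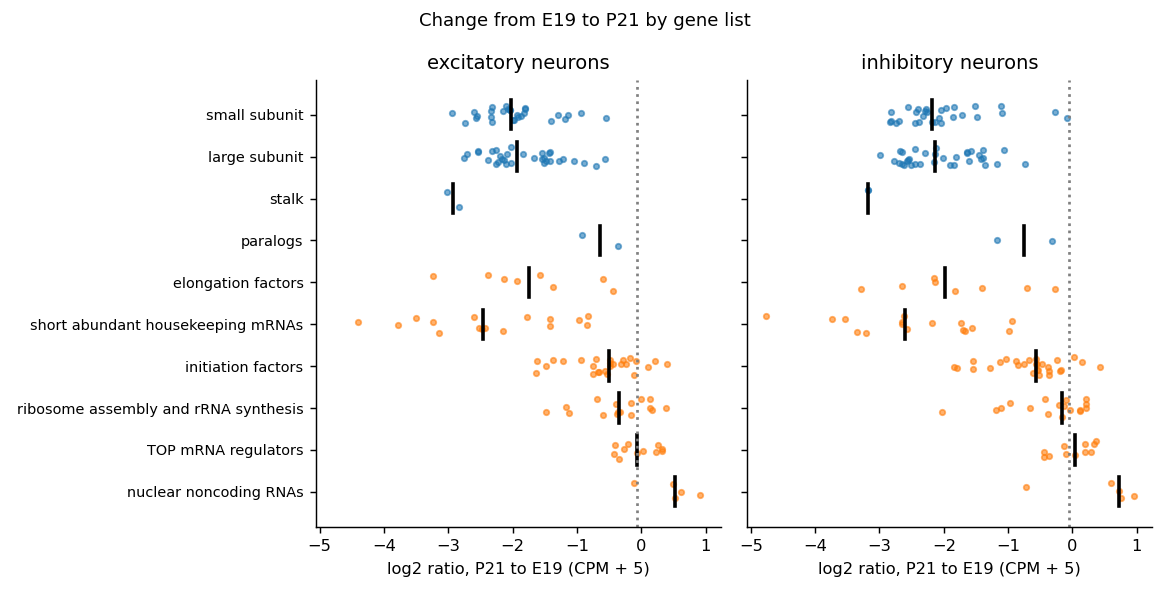
Log2 ratio of P21 to E19 (horizontal axis, 5 CPM added) for single genes (points) of each list in both neuron classes; black bars are list medians, blue points are members, orange points other genes, and the dotted line is the median of all genes tested. Stalk, small and large subunit genes lie with elongation factors and short housekeeping mRNAs, while TOP mRNA regulators lie near the median of all genes.

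Shorter genes had lower ratios. Among tested genes that are not members, those under 5 kb had a median log2 ratio of -0.88 from E19 to P21 in excitatory neurons (395 genes, 70.6% past the fold), those of 5 to 20 kb -0.27, those of 20 to 100 kb 0.01 and longer ones 0.08. The 47 tested members under 5 kb had a median of -2.04, below that of the other genes of their length. Within the members the rank correlation of the log2 ratio with gene length was 0.24 over 64 genes, a description across genes that are not independent. Members with the TOP tract at an annotated start had a median of -1.62 (8 tested), members with an entry and no tract -1.98 (38) and members with no entry -2.20 (18), so members with the tract at the annotated start did not have the lower median. Other genes with the tract were at -0.12 (217) and those without at -0.06 (6864).

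The libraries held 2249 to 2585 nuclei and 19277512 to 31325079 UMIs, and the median depth went from 6828 UMIs per nucleus at E19 to 11745 at P21; 18 nuclei carried a barcode found in another library. The classes matched their markers: Slc17a6 and Slc17a7 summed to 179 to 286 CPM in excitatory against 8.5 to 46.3 in inhibitory neurons, and Gad1, Gad2 and Slc32a1 to 680 to 950 in inhibitory against 34.6 to 58.6 in excitatory neurons. Astrocyte markers were also high in leptomeningeal cells, at 1437 to 3151 CPM. Markers of other cells moved between libraries: the 4 oligodendrocyte genes in excitatory neurons went from 57.1 to 254 CPM over the whole span, and the 3 epithelial genes, Ttr among them, at 74.6 at P4 and 1.6 to 1.8 at the other stages. Their part in the member values was not tested.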

How the data were processed

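Nuclei of pooled superior colliculus tissue were purified through sucrose, captured with 10x Genomics 3′ v3 chemistry and counted by the authors with Cell Ranger 3.0.2 (build mm10), per the labels' protocols and the submitters' processing notes; whether intronic reads were counted is not given there. The deposited matrix held UMI counts, not normalised, for 31053 genes and 9724 nuclei; the deposited table gave stage, class, subtype and, as the authors computed them, each nucleus's mitochondrial and ribosomal percent. Filters on nuclei and doublet removal are not given in the sources used here, and none was added. A further 7 per-nucleus columns were not used.

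UMIs were summed per library and class and scaled to 1000000 (CPM), with Python 3.11.15, numpy 2.4.6, scipy 1.17.1 and pandas 2.3.3. Log2 ratios added 5 CPM, which understates the change of low genes, while folds of single genes and sums were plain ratios of CPM. A gene counted as tested with a mean of 10 CPM over the stages or, between classes, over both classes at that stage. It counted as past the fold at a log2 ratio of 0.5. Intervals were exact (Poisson, Clopper-Pearson, conditional binomial) at 95%. Classes needed 50 nuclei, subtypes 20. Gene models came from GENCODE M21 and transcript starts from RefSeq. The calculation was tested on simulated data. The members and lists were chosen with earlier results of these data known. The rule for named genes took all stalk and paralog genes, the 5 lowest and highest log2 ratios per neuron class over the whole span, 2 per step, 3 per other comparison, and the ends of each list; not every gene it takes is printed, and 1 list end is not reported here. Rpl15 in astrocytes, the copies, overlapping genes, kinases, Rpl39 in full, Rps12, Rps27, Rpl27 and Rpl13 were chosen after seeing their values, as were the depth bands, gene length bands and split by tract. Alternatives changed the pseudocount, fold, filter, scaling, weighting, depth and nuclei used.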

Additional observations from a re-analysis of the deposited data

Results flagged for a closer look

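In 3 cases a member was higher by the fold in one class and lower by it in another over the same step, and these differences were not tested. Rps7 was higher from P4 to P8 in the oligodendrocyte lineage (log2 ratio 0.82) and lower in astrocytes (-0.50) and in vascular leptomeningeal cells (-0.66); the oligodendrocyte value rests on 3 UMIs at P4 and 20 at P8. Rpl7a was higher from P4 to P21 in the oligodendrocyte lineage (1.60) and lower in leptomeningeal cells (-0.67); it had 0 UMIs at P4 in the former, which allows up to 13.2 CPM, above its 10.2 CPM at P21, so no fold is given.

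A signal outside the members was found in Gm20388, the gene model around Rpl13, with 33440 UMIs in the 4 libraries, while Rpl13 had 0.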

How the results depend on the processing

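No paired analysis was possible because each stage had 1 library, and for the same reason no replicate could be left out. No direction reversed under any alternative run. The log2 ratio of P21 to E19 of the member percent, for excitatory neurons, inhibitory neurons and astrocytes in that order, was -2.37, -2.56 and -2.57. It was -2.47, -2.71 and -2.44 with subtypes weighted alike, and -2.33, -2.45 and -2.43 in nuclei with at most 1% mitochondrial UMIs. After thinning each nucleus to 2300 UMIs it was -2.41 and -2.63 in the neuron classes. Among alternatives chosen after seeing the data, it was -1.83 and -2.11 in neurons of 6000 to 12000 UMIs, and -1.60, -1.82 and -2.02 over all genes behind the deposited percent.

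Counts of members lower by the fold in excitatory and inhibitory neurons depended on the settings for single steps. With 20 CPM added they were 18 of 64 and 38 of 67 from P8 to P21 (all genes 6.74% and 7.09%), and 12 and 17 from P4 to P8 (2.32% and 1.67%). With a log2 ratio of 1 as the fold they were 14 and 30 from P8 to P21 (3.04% and 3.28%), 3 and 3 over the first step (0.567% and 0.462%), and 0 and 0 from P4 to P8 (0.654% and 0.323%). In inhibitory nuclei with at most 1% mitochondrial UMIs the P4 to P8 count was 15 (3.13%). That limit was not run in the oligodendrocyte lineage, where 0 nuclei of P4 met it. The cause of these differences was not tested. The other 85 planned values kept their direction, with counts within 1.5 times those reported and percents within their counting error. Members with under 100 UMIs, and classes with under 50 nuclei, are limited by depth.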
